A study of Saccharomyces cerevisiae with 4 samples.

Results

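The yapsins of Saccharomyces cerevisiae are a family of aspartyl endoproteases, and the 6 genes YPS1, MKC7, YPS3, YPS5, YPS6 and YPS7 were followed here among 6690 reading frames. The members were taken by their systematic names (YLR120C, YDR144C, YLR121C, YGL259W, YIR039C and YDR349C), and the family was selected on the higher FPKM of YPS5 in the double deletion. The YPS5 difference between genotypes is therefore a description with no test. All 6 members had at least 1 FPKM, a fragment count scaled to gene length and library size, in at least 2 libraries and entered the test. The libraries come from yeast growing exponentially in YPD, a rich glucose medium. There were 2 of wild-type cells and 2 of cells lacking both SIR2 and HST1, and the series calls them technical replicates. P-values therefore measure only the spread between these libraries and not that between cultures. Both strains were MAT alpha with the alleles can1-100, his3-11, trp1-1, ura3-1 and both leu2-3 and leu2-112, a deleted LYS2 and ura3 in place of HMR. The double deletion also carried KanMX in place of HST1 and TRP1 in place of SIR2, so any effect of these markers cannot be told apart from that of the lost genes. As a check of the labels, SIR2 had 24.3 and 23.8 FPKM and HST1 had 58.2 and 57.8 FPKM in wild-type cells, and both genes were listed at 0 in each library of the double deletion. FPKM sums lay between 3419040 and 3662430 per library, and without read totals in the files the depth is unknown.

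Most yapsins are held at the plasma membrane or in the cell wall by a GPI anchor, a glycolipid tail, and cut secreted and wall proteins after basic residues. YPS1 and MKC7 were found through their ability to process precursors when the Kex2 protease is missing, and loss of several yapsins together weakens the wall. YPS3 and YPS6 encode further members, YPS7 the most divergent, and YPS5 a short protein. Like other pepsin-type enzymes, a complete yapsin has a pair of catalytic aspartates, each in a short Asp-Thr-Gly or Asp-Ser-Gly motif. Sir2 is a NAD+-dependent deacetylase that silences chromosome ends, and its paralog Hst1 acts with the repressor Sum1 at genes of sporulation and NAD+ synthesis.

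In the R64 reference the members split into 4 genes inside chromosome arms and 2 near chromosome ends. YPS5 lay 8.47 kb from the end of chromosome VII and YPS6 7.78 kb from the end of chromosome IX. YPS1 and YPS3 are neighbours on the same strand of chromosome XII, 523 bases apart, and MKC7 and YPS7 lie on chromosome IV. The coding sequences of 5 members had between 1527 and 1791 bases, and that of YPS5 had 498. The bases around the catalytic motif are shown because it was found at 1 place in YPS5 and at 2 in YPS1, MKC7, YPS3 and YPS6. Capitals mark the codons for aspartate, threonine or serine, and glycine, searched for in the reading frame after a hydrophobic codon and before a codon for serine or threonine. Each line runs from 5′ to 3′ in the sense of the gene.
YPS1 first site, codon 101 (R64 chrXII:387897-387938, minus strand): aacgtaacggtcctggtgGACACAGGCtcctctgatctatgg
MKC7 first site, codon 99 (R64 chrIV:745784-745825, minus strand): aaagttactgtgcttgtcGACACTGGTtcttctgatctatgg
YPS3 first site, codon 81 (R64 chrXII:390007-390048, minus strand): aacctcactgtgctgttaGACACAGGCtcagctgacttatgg
YPS5 first site, codon 85 (R64 chrVII:8704-8745, plus strand): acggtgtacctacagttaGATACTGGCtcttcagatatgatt
YPS6 first site, codon 85 (R64 chrIX:431836-431877, minus strand): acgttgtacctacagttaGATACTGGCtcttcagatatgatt
YPS1 second site, codon 371 (R64 chrXII:387087-387128, minus strand): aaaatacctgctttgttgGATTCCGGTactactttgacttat
MKC7 second site, codon 360 (R64 chrIV:745001-745042, minus strand): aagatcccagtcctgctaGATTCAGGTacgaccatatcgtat
YPS3 second site, codon 288 (R64 chrXII:389386-389427, minus strand): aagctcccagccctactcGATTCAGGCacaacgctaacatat
YPS6 second site, codon 324 (R64 chrIX:431119-431160, minus strand): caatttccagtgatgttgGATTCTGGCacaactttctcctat
YPS1, MKC7, YPS3 and YPS6 each held the pattern at 2 places, YPS5 only at the first, and YPS7 had 0 matches to it. No match says only that these letters are not there.

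YPS5 is a broken copy of YPS6 in this reference. Whether the strains used here carry the same sequence was not checked. The coding sequence of YPS5 aligned with that of YPS6 over 492 bases with 94.9% identity and 25 mismatches. A single base is missing from YPS5 after base 397, which shifts the reading frame, and the frame then stops after 165 codons, against 537 in YPS6. The stretch around the missing base is shown with every difference in capitals.
YPS5 coding bases 377 to 418 (R64 chrVII:8846-8887, plus strand): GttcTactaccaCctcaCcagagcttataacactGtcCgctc
YPS6 coding bases 377 to 419 (R64 chrIX:431693-431735, minus strand): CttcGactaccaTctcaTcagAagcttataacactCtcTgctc
The alignment of the loci ran on past the YPS5 stop codon. From each start codon it covered 1446 aligned bases with 85.3% identity, to base 1455 of the YPS5 locus and base 1654 of the YPS6 locus. This identity leaves out 21 gaps, which span 217 bases. YGL258W-A, a small uncharacterized reading frame that starts 194 bases after YPS5 on the same strand, lies inside this copy, and its bases 1 to 215 aligned with bases 706 to 917 of YPS6 with 78.8% identity. In the translated sequences YPS5 and YPS6 had 93.2% identical residues over 133 aligned codons. Other pairs of members were less alike by this measure, the closest being YPS1 and MKC7 with 57.1% over 499 aligned codons. YPS7 shared between 29.8% and 35.4% of aligned residues with YPS1, MKC7, YPS3 and YPS6.

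**Figure D1:**
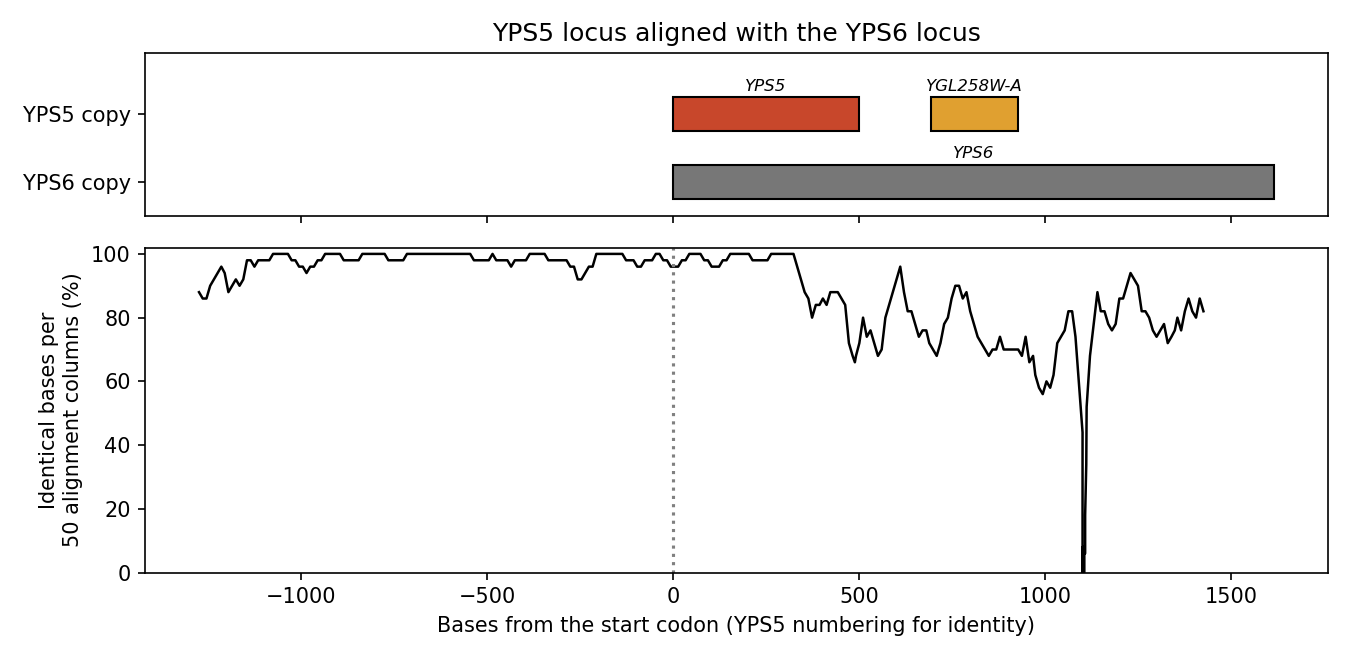
The upper panel draws the R64 reading frames of the YPS5 and YPS6 loci to scale in bases from the start codon, and the lower panel gives the percent of identical bases in windows of 50 alignment columns. Identity lies at or above 92% from 1000 bases before to 300 bases after the start codon and falls beyond it, reaching 0% where the YPS5 copy lacks a stretch of YPS6.

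The copies also shared their upstream sequence. The 300 bases before YPS5 and YPS6 had 98.3% identity, with 5 mismatches and 2 gaps, and the 1300 bases before each start codon had 97.9%. Of the 2 gaps, 1 is the bases GA, present before YPS5 only. The other is the end of the window, which reaches 2 bases further upstream in YPS6 because of it. The 300 bases before each start codon are shown because they are nearly the same in the 2 copies. Capitals mark every unmatched base in this alignment, and the TG that opens the YPS6 line is the end gap, not a difference between the loci.
YPS5 upstream (R64 chrVII:8170-8469, plus strand): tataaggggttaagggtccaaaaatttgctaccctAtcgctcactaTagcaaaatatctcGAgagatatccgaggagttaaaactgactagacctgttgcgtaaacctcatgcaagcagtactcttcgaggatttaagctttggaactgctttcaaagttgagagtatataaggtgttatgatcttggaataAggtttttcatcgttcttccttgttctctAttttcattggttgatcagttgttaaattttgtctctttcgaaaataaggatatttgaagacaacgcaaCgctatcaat
YPS6 upstream (R64 chrIX:432112-432411, minus strand): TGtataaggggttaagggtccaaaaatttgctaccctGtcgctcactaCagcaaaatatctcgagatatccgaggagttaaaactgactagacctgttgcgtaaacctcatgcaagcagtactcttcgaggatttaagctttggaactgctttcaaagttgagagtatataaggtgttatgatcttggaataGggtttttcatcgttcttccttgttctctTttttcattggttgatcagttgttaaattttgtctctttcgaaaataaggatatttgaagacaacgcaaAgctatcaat
The middle sporulation element is the DNA site bound by Sum1, which recruits Hst1, and its core was searched for on either strand as CACAAAA or as CGCAAAA, each also with T for its last A. The core was found in the 300 bases before 0 of the 6 members, and in 19.9% of 6001 R64 promoters of the same length. It was found before 30.7% of 381 genes called higher in the double deletion and 18.8% of 5398 other tested genes. The longer form, with GN before the core, was found before 16.5% and 4.00% of these. A site for Rlm1, the transcription factor of cell wall stress (1.18% of promoters), and the calcineurin-dependent core GAGGCTG (1.70%) were also found before 0 members. These are matches of letters only, and no match says nothing about the factor.

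The order of the family's levels was the same in all 4 libraries, YPS1 highest, then YPS3, YPS7, MKC7, YPS6 and YPS5. FPKM is scaled to gene length, so levels were compared between genes. Reads shared between similar sequences could still alter the YPS5 and YPS6 levels, which was not tested. In wild type YPS1 averaged 336 FPKM and lay above 89.1% of the tested genes, and YPS5 averaged 3.01 FPKM and lay above 4.29%. The ranges of the 2 libraries did not overlap between any neighbours in this order, in either genotype. The closest neighbours were YPS7 and MKC7 in the double deletion, with 134 and 125 FPKM, and YPS3 and YPS7 in wild-type cells, with 153 and 129. Summed over the 6 genes, the level was 754 and 739 FPKM in wild-type cells and 735 and 759 in the double-deletion libraries. YPS1 made up 44.6% and 45.4% of this sum in wild-type cells and 41.5% and 38.9% in the double-deletion libraries, and YPS5 0.361% and 0.446% in wild-type cells and 1.04% and 1.22% in the double-deletion libraries. The summed level thus overlapped between genotypes. The YPS5 share restates the values on which the family was chosen, and the YPS1 difference did not pass (limma adjusted p = 0.112). A shift of shares within the family was therefore not tested.

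**Figure D2:**
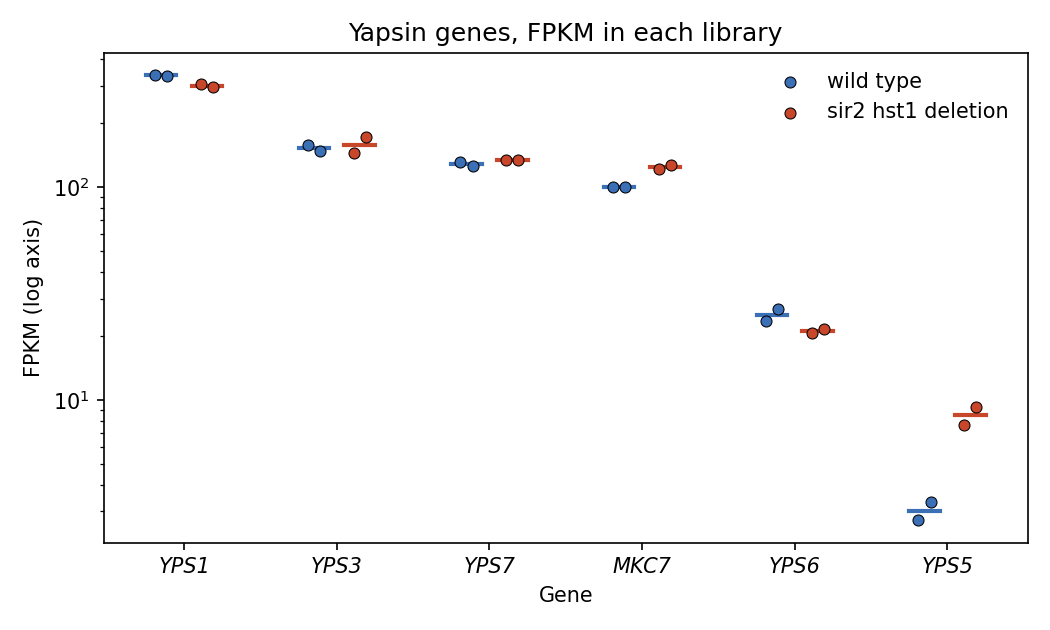
FPKM on a log axis is plotted for each yapsin gene, with a point for each of the 2 libraries per genotype and a line at their mean. The wild-type and deletion points are apart for YPS5 (3.01 and 8.45 FPKM on average) and overlap for YPS3. They are also apart, by less, for YPS1, MKC7, YPS6 and YPS7.

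YPS5, which in R64 keeps only the first catalytic motif, was higher in the double deletion. Its values were 2.72 and 3.30 FPKM in wild-type cells, against 7.66 and 9.25 FPKM in the double deletion. Both deletion libraries were above both wild-type libraries. The ratio of means was 2.81, and the difference in log2(FPKM + 1), a scale that understates changes of low genes, was 1.24 (SE 0.15), or 0.75 with a pseudocount of 5 in place of 1. Of 6370 tested genes 200 had a larger log2 difference. Such separation was also seen in other members. Its share of all tested genes was not counted, so separation is a description only. Counts per cell are not known from a bulk culture, so a level raised in every cell and a level raised in a few cells cannot be told apart. The replicates of YPS5 differed by 0.21 in wild-type cells and 0.24 in the double deletion on that scale, against medians of 0.12 and 0.14 over 667 genes with a mean of 3 to 10 FPKM.

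The other 5 members entered the family whatever their values. By limma, 1 of the 5 was higher and 0 were lower (Benjamini-Hochberg adjusted p under 0.05 over all genes tested), against 1 higher and 2 lower at unadjusted p under 0.05. Over all 6370 genes 6.75% were called higher and 2.79% lower, which is 430 and 178 genes, or 355 and 294 after quantile normalization. Without deletion replicate 1 or 2, 190 or 184 genes were higher. Calls of a lower level dropped to 54 or 50 when wild-type replicate 1 or 2 was left out, and to 47 or 83 when it was deletion replicate 1 or 2. The median log2 difference of the 5 was 0.04, and that of all tested genes -0.01.

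MKC7, whose product overlaps with that of YPS1 in substrates, had 100.2 and 100.4 FPKM in wild-type cells and 122 and 128 in the double deletion. The genotypes did not overlap, and the ratio of means was 1.24 (log2 difference 0.31, SE 0.05, limma adjusted p = 0.0365). This call was lost when any of the 4 libraries was left out (adjusted p from 0.065 without deletion replicate 1 to 0.195 without wild-type replicate 2) and without the mean-variance trend of the fit (0.0553), while the difference stayed between 0.28 and 0.34. YPS1, the most abundant member, had 336 and 335 FPKM in wild-type cells and 305 and 295 in the double deletion. Both deletion libraries were below both wild-type libraries, but the difference did not pass (log2 difference -0.16, SE 0.05, limma adjusted p = 0.112). YPS3, the gene next to YPS1, had 159 and 148 FPKM in wild-type cells and 145 and 172 in the double deletion. The genotypes overlapped (log2 difference 0.04, SE 0.10, adjusted p = 0.819), and the sign turned without wild-type replicate 2 (-0.01) or deletion replicate 2 (-0.08).

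YPS6, the complete copy behind nearly the same upstream sequence as YPS5, had 23.6 and 26.7 FPKM in wild-type cells and 20.6 and 21.7 in the double deletion. Both deletion libraries were below both wild-type libraries, opposite to YPS5, and the difference did not pass (log2 difference -0.24, SE 0.08, limma adjusted p = 0.148; -0.15 without wild-type replicate 2). YPS7, the divergent member, had 132 and 125 FPKM in wild-type cells and 135 and 134 in the double deletion. The deletion libraries were slightly above the wild-type libraries, without passing (log2 difference 0.06, SE 0.05, adjusted p = 0.489; 0.03 without wild-type replicate 2 and 0.10 without wild-type replicate 1). Missing the threshold does not show that these 4 genes were equal between genotypes.

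Reads could be shared between the copies. Of the 50-base windows in the YPS5 coding sequence, 38.3% had an exact copy elsewhere in the genome, as had 11.0% of those in YPS6. For windows of 75 bases these shares were 22.9% and 6.30%, and for 100 bases 6.77% and 1.78%. Neither the read length nor the handling of reads with several matches is known here, and the part of shared reads in the YPS5 and YPS6 values was not tested. YPS1, MKC7, YPS3, YPS7 and YGL258W-A had 0% of such windows at each of these lengths. The strand setting is not given either. YLR120W-A resembles the systematic name of YPS1, but R64 lacks it and its position was not checked. It had 3127 and 3256 FPKM in wild-type cells and 3260 and 3480 in the double deletion. Any part of its reads in the YPS1 value was not tested.

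The reading frame after YPS5, in the same broken copy of R64, was higher too. YGL258W-A had 28.7 and 28.2 FPKM in wild-type cells and 89.6 and 84.4 in the double deletion. The genotypes did not overlap, and this frame was the more abundant of the pair in every library. The ratio of means was 3.06 (log2 difference 1.58, SE 0.06, limma adjusted p = 0.000345). On the other side of YPS5, YGL260W and YGL262W were listed at 0 in all 4 libraries, and the seripauperin gene PAU11 was listed at 0 in wild-type cells but at 0.252 and 0.271 FPKM in the double deletion, so none of these was tested. VEL1 had 11.4 and 10.4 FPKM in wild-type cells and 17.3 and 10.9 in the double deletion (adjusted p = 0.40), and MNT2, a mannosyltransferase gene, 66.7 and 64.3 against 62.0 and 59.8 (adjusted p = 0.289).

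Around YPS6 the pattern differed. The nearest gene on the centromere side was GTT1, which encodes a glutathione transferase and lies 5984 bases from YPS6. GTT1 fell from 70.7 and 66.6 FPKM to 33.1 and 37.3 (log2 difference -0.95, SE 0.08, limma adjusted p = 0.00467). PAU15, on the telomere side, had 0.194 and 0 FPKM in wild-type cells against 0.235 and 0.756 in the double deletion and was not tested. YIR042C (41.2 and 38.1 FPKM in wild-type cells, 40.0 and 42.7 in the double deletion) did not pass (adjusted p = 0.623). Taking the 3 nearest R64 genes on each side of every member, 28 of 30 had values, and of the 24 tested 2 were higher and 1 was lower by limma, which is 8.33% and 4.17%, near the 6.75% and 2.79% of all tested genes. The 21 tested neighbours that were not called lay between -0.29 (MRP1, next but one to YPS7) and 0.33 (YLR125W, next but one to YPS3) in log2 difference. The other higher neighbour was YLR126C, the third gene from YPS3, with 49.9 and 58.6 FPKM in wild-type cells and 85.5 and 82.3 in the double deletion (adjusted p = 0.0248). The call was lost when deletion replicate 1 (adjusted p = 0.104) or 2 (0.0927) was left out, and with no filter (0.0779).

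**Figure D3:**
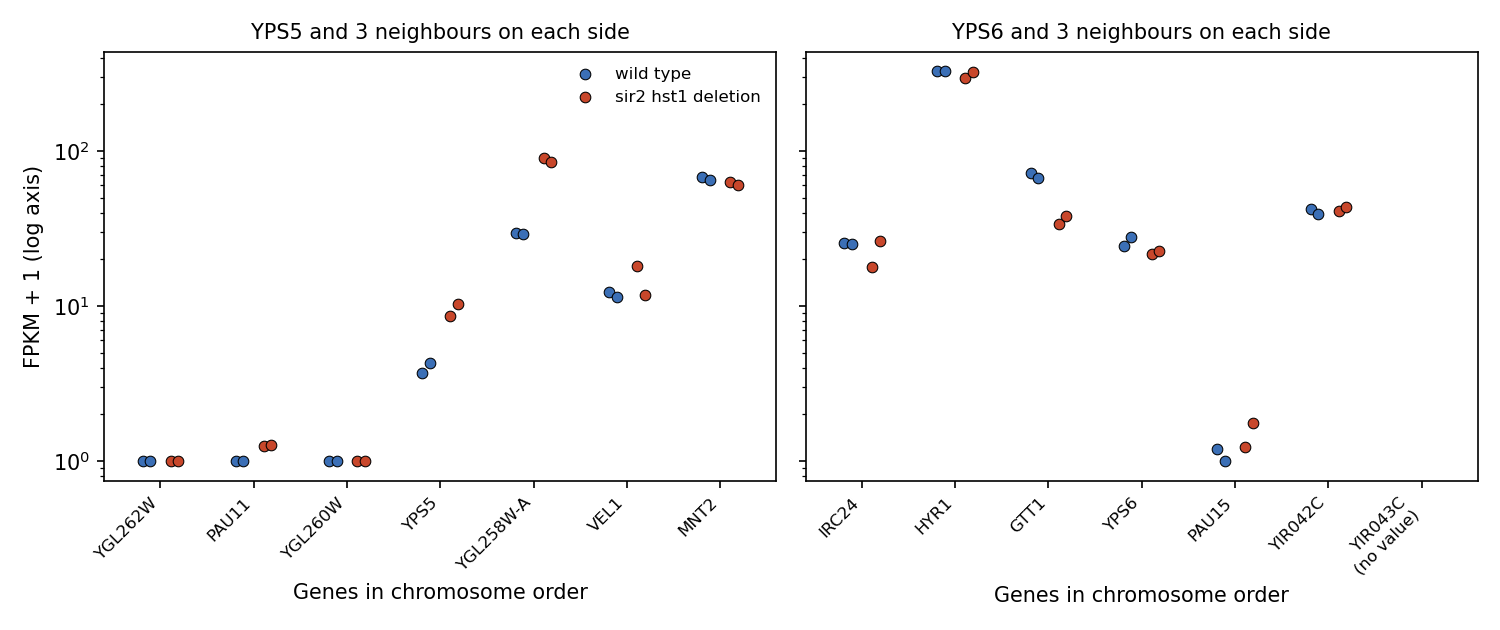
FPKM + 1 on a log axis is plotted for YPS5 and YPS6 and the 3 nearest R64 genes on each side in chromosome order, with a point for each of the 2 libraries per genotype. YPS5 and YGL258W-A are higher in the double-deletion libraries on the left, while YPS6 is slightly lower and GTT1 falls on the right.

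The genes with values nearest to those of YPS5 over the 4 libraries, by Euclidean distance of log2(FPKM + 1), were COS4, REG2, MPC54, AAD15 and YER188C-A, at distances from 0.31 to 0.48. COS4, a subtelomeric membrane protein gene, was nearest, with 2.31 and 3.03 FPKM in wild-type cells and 8.93 and 10.4 in the double deletion. REG2 came next, with 3.43 and 3.95 FPKM in wild-type cells and 7.04 and 7.79 in the double deletion. MPC54, which encodes a part of the meiotic spindle pole plaque, had 3.27 and 4.13 FPKM and 9.24 and 8.73. AAD15, of the aryl-alcohol dehydrogenase family, had 2.92 and 2.95 FPKM and 9.17 and 11.7. YER188C-A had 2.34 and 3.74 FPKM and 10.5 and 10.4. Of the 50-base windows of COS4 72.3% also occur elsewhere in the genome, as do 39.0% of those of YER188C-A and 35.2% of those of AAD15, so their values may include reads of similar genes. These distances describe 4 libraries only and carry no test. They start from the YPS5 values on which the family was chosen, so genes higher in the double deletion are returned by construction.

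Wall damage raises some yapsin genes through the cell wall integrity pathway, in which surface sensors act through Rho1 and Pkc1 on the kinase Slt2 and the factor Rlm1. Of 20 genes of this pathway 0 were higher and 2 were lower (limma, against 1 higher and 6 lower at unadjusted p under 0.05), and 9.54% of all tested genes were called in either direction. MTL1, a sensor gene, fell from 60.6 and 58.3 to 39.0 and 40.5 FPKM (log2 difference -0.57, SE 0.06, adjusted p = 0.00801), although not without deletion replicate 1 (0.0525). RLM1 fell from 43.6 and 44.8 to 33.5 and 35.7 FPKM (log2 difference -0.34, adjusted p = 0.0408). The RLM1 call was lost without any of the 4 libraries (adjusted p from 0.0743 without deletion replicate 2 to 0.188 without wild-type replicate 2), without the trend (0.0538) and with no filter (0.0792). SLT2 had 380 and 367 FPKM in wild-type cells and 305 and 252 in the double deletion without passing (adjusted p = 0.074), but passed without deletion replicate 1 (0.0387). The 20 genes had a median log2 difference of -0.10.

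Among 16 wall genes that respond to this pathway 1 was higher and 2 were lower (limma, against 1 higher and 5 lower at unadjusted p under 0.05), with a median log2 difference of -0.12. These are 18.8% of the list, against 9.54% of all tested genes. GSC2, which encodes an alternative catalytic subunit of glucan synthase, rose from 13.0 and 12.0 to 26.6 and 26.5 FPKM (log2 difference 1.03, SE 0.07, limma adjusted p = 0.00232). PST1, a GPI-anchored wall protein gene, fell from 483 and 460 to 294 and 281 FPKM (log2 difference -0.71, SE 0.06, adjusted p = 0.00347). NCW2, another GPI-anchored wall protein gene, fell from 802 and 772 to 552 and 599.9 FPKM (adjusted p = 0.0194), but not without wild-type replicate 1 (0.0827), wild-type replicate 2 (0.0666) or deletion replicate 1 (0.0525), nor with no filter (0.0524). Leaving out a library gave 1 lower gene without wild-type replicate 1 or 2 or deletion replicate 1 and 4 without deletion replicate 2, and 2 higher genes without deletion replicate 1. The mannoprotein gene PIR1, with 766 and 806 against 575 and 672 FPKM, did not pass (adjusted p = 0.0865).

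Calcineurin is a phosphatase whose signalling also raises YPS1 in calcium stress. Of 12 calcineurin genes 0 were higher and 0 lower (limma, against 1 higher and 1 lower at unadjusted p under 0.05), with a median log2 difference of 0.00. Over all tested genes 9.54% were called, so 0 calls among 12 genes say little. The largest difference was in CNA1, the gene of a catalytic subunit, with 24.3 and 25.1 FPKM in wild-type cells and 31.3 and 30.1 in the double deletion (adjusted p = 0.0502). It passed with a pseudocount of 5 (0.0499), a minimum of 5 FPKM (0.0477) or a robust prior (0.0446). CRZ1, the factor calcineurin activates, had 97.0 and 101 FPKM against 107 and 101 (adjusted p = 0.473).

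Other proteases of the secretory route and other aspartyl proteases were called in 0 of 6 cases (limma, against 1 higher and 2 lower at unadjusted p under 0.05; median log2 difference -0.05). KEX2, whose missing activity YPS1 and MKC7 can replace, had 57.1 and 56.7 FPKM in wild-type cells and 55.6 and 60.4 in the double deletion (adjusted p = 0.829). PEP4, the vacuolar aspartyl protease gene, had 407 and 393 against 409 and 402 (adjusted p = 0.839). BAR1, which encodes the secreted aspartyl protease that degrades alpha-factor and is normally expressed in cells of the a mating type, had 4.82 and 4.83 against 7.44 and 6.92 (log2 difference 0.49, SE 0.10, adjusted p = 0.0552). The BAR1 difference was 0.31 with a pseudocount of 5 and 0.16 after quantile normalization (adjusted p = 0.324), and it passed with no filter (0.0363) and without the trend (0.0228). Of 4 genes whose products yapsins are reported to cut, MFALPHA1, MSB2, GAS1 and UTR2, 0 were called (limma, against 0 higher and 1 lower at unadjusted p under 0.05; median log2 difference 0.11). With 9.54% of all tested genes called, 0 calls in lists of 6 and 4 genes say little. MFALPHA1, the alpha-factor precursor gene, had 2749 and 2791 FPKM in wild-type cells and 2185 and 2543 in the double deletion (adjusted p = 0.144), and passed without deletion replicate 2 (0.0373) and after quantile normalization (0.0428). Its log2 difference of -0.23 was -0.12 without deletion replicate 1. GAS1, a GPI-anchored glucanosyltransferase gene, had 2002 and 1994 against 2144 and 2119 (log2 difference 0.09, adjusted p = 0.197), and the difference was 0.05 after quantile normalization.

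Genes for making and attaching the GPI anchor that yapsins carry included 4 higher and 0 lower of 25 (limma, against 7 higher and 4 lower at unadjusted p under 0.05), and their median log2 difference was 0.01. The called genes are 16.0% of the list, against 9.54% of all tested genes called in either direction and 6.75% called higher. MCD4, which adds phosphoethanolamine to the anchor, rose from 61.1 and 56.4 to 86.1 and 83.6 FPKM (log2 difference 0.52, SE 0.06, adjusted p = 0.0143). It did not pass without wild-type replicate 2 (0.0662), deletion replicate 1 (0.0722) or deletion replicate 2 (0.0676). GPI11, GWT1 and GPI18 had log2 differences of 0.31, 0.31 and 0.26 (adjusted p = 0.032, 0.0459 and 0.0495), and each of these calls was lost when any 1 of the 4 libraries was left out. GWT1 and GPI18 also missed the threshold with no filter (adjusted p = 0.0733 and 0.0558), after quantile normalization (0.0573 and 0.0543) and without the trend (0.0626 and 0.0735), and GPI18 with a pseudocount of 0.1 (0.0508) or 0.5 (0.0501). The largest difference in the other direction was that of GPI19, with 29.5 and 33.4 FPKM in wild-type cells and 24.4 and 23.1 in the double deletion (log2 difference -0.39, adjusted p = 0.0597), which passed with a robust prior (0.0477). The list had 1 gene higher without wild-type replicate 1 and 0 without each of the other libraries.

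**Figure D4:**
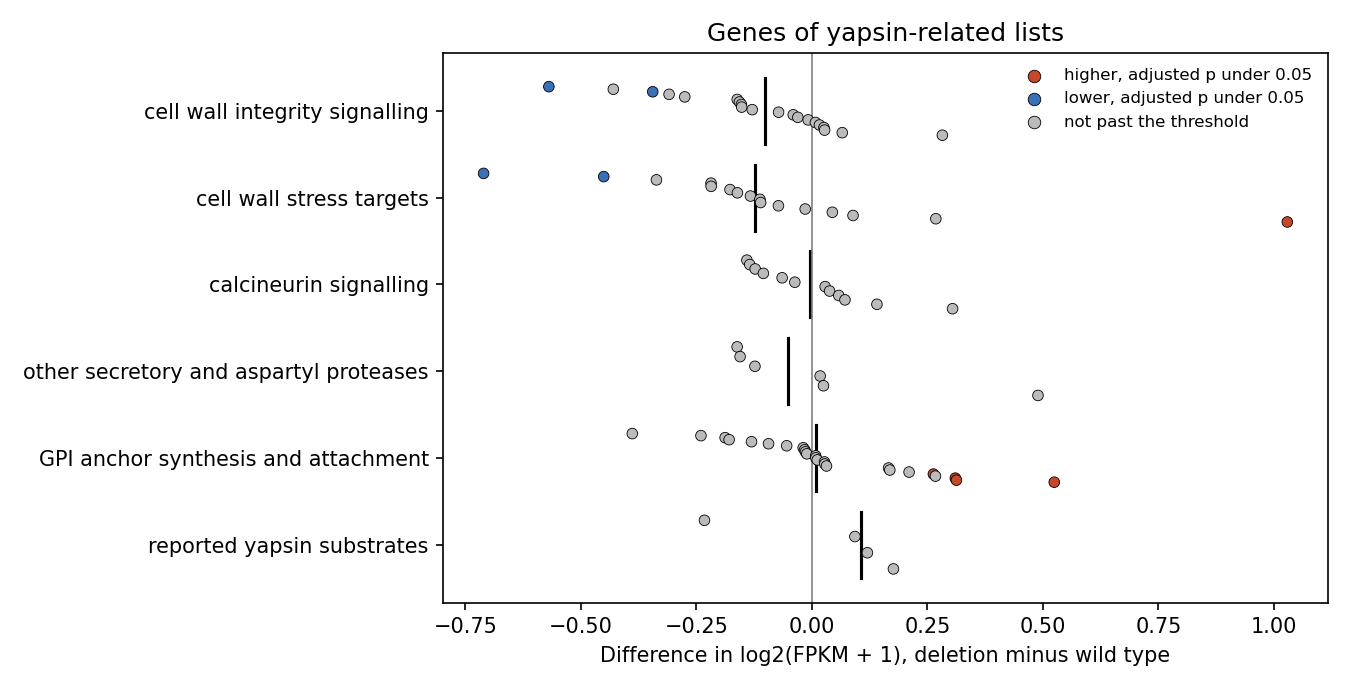
Each point is a gene of a yapsin-related list, placed by its difference in log2(FPKM + 1), deletion minus wild type, with the list's median as a black line. Most points are grey, not past the adjusted p threshold, with GSC2 at 1.03 farthest to the right and PST1 at -0.71 farthest to the left.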

How the data were processed

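The deposited values are FPKM per reading frame, 1 file for each of 4 libraries, 2 per genotype. Per the submitters' processing notes, the authors used TopHat2 2.0.10 and Cuffnorm 2.2.1. For the build, annotation, scaling between libraries, strand setting and treatment of multiply mapped reads, none is given in the sources. Names were matched to R64 locus tags (6007 of 6690). The test was limma (version 3.58.1; R version 4.3.3) with a trended eBayes prior and Benjamini-Hochberg adjustment. It ran on log2(FPKM + 1) of the 6370 genes that reached 1 FPKM in 2 or more libraries. FPKM carries no counts, so no count test was run. Tested on data simulated for this comparison (6345 genes, 200 changed), it found 56% of the 1.5-fold, 80% of the 2-fold, 90% of the 4-fold and 96% of the 8-fold changes and called 7 unchanged genes.

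The members and gene lists were chosen with earlier results of these data known. The rule for naming covered all members, SIR2 and HST1, the 3 nearest R64 genes on each side, the called genes and up to 4 with the largest differences in each list, and the 5 genes nearest to YPS5. Of the neighbours and list genes it covers, those described were picked with their values known. CRZ1, KEX2, PEP4 and YLR120W-A are outside this rule and were added likewise. Sequences are from the RefSeq R64 genome, read by its own annotation, whereas the files name no build. They were aligned with Biopython 1.88. Alternatives changed the pseudocount, the filter, the scaling or the eBayes prior, added the replicate number as a block, or left out each library in turn. In the last case the remaining library of a genotype is taken to vary as the other genotype does.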

Additional observations from a re-analysis of the deposited data

How the results depend on the processing

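YPS1, YPS6 and YPS7 kept their direction and stayed short of the threshold under every alternative run. The log2 difference of YPS5 was 1.46 with a pseudocount of 0.1, 0.75 with 5 and 0.88 after quantile normalization, and 1.11 to 1.36 with a library left out. YGL258W-A, GTT1, GSC2 and PST1 passed under every alternative. The MKC7 difference of 0.31 missed the threshold without the trend (adjusted p = 0.0553) and with the replicate block (0.07), and was 0.28 to 0.34 with a library left out. YPS3 ran from -0.08 to 0.16 with a library left out, with -0.0096 without wild-type replicate 2 and -0.082 without deletion replicate 2.

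The main test called 430 genes higher and 178 lower. Leaving out a library gave 184 to 377 higher and 47 to 83 lower, and lower genes numbered 76 with no filter, 294 after quantile normalization and 111 with the replicate block, which left 360 higher. Among cell wall integrity genes 1 was lower with no filter, without the trend and with the replicate block, and 1 with a library left out. Among wall stress genes 1 was lower with no filter, 1 to 4 were lower with a library left out and 1 to 2 were higher. GPI anchor genes had 2 higher with no filter, after quantile normalization and without the trend, 1 with the replicate block, 0 to 1 with a library left out, and 1 lower with a robust prior. Calcineurin genes had 1 higher with a pseudocount of 5, with a minimum of 5 FPKM and with a robust prior. The other proteases had 1 higher with no filter and without the trend. The reported substrates had 1 lower after quantile normalization and 0 to 1 with a library left out. The cause of these shifts was not tested.

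Replicate numbers are shared between genotypes in the labels, but nothing says that they pair the libraries. Across genes, replicate 1 minus 2 correlated at -0.094 between genotypes (6370 genes, not independent). In a window of 150 bases the motifs were again found before 0 members. Groups of 2 libraries are too small for an outlier check.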
